A study of Drosophila melanogaster with 4 samples.

Results

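Wing pouch-like cells of *scrib* mutant wing imaginal discs were the cells chosen by 3 measured values, those of *nub*, *vg* and *Dll*, each of which had to be above 0 in the cell. This rule found 323 cells of 14456 in the series, with 17 of 3785 cells at 4 days after egg laying (AEL), 63 of 6457 at 5 days, 153 of 3104 at 8 days and 90 of 1110 at 14 days. They are set against the marker-negative cells of the same library, in which all 3 genes were at 0, and which numbered 1048, 2359, 1391 and 469 on days 4, 5, 8 and 14. The discs came from larvae of genotype scrib-/- FRT82B, bred from scrib[1]FRT82B/TM6B parents and raised at 25 °C, and each age had 1 single-cell library made with the 10x method from trypsin-dissociated discs. Every group carried the *scrib* mutation, and no control discs were analysed here. The number of larvae or discs behind a library was not given in the sources used here.

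A larval epithelial sac, the wing disc gives rise to the wing and the dorsal thorax of the adult fly. Its centre, the pouch, forms the wing blade, and around it lie the hinge and, dorsally, the notum. *vg* encodes a nuclear cofactor that works with the DNA-binding protein Scalloped to specify wing fate, *nub* encodes a POU-domain transcription factor of the pouch and distal hinge, and *Dll* encodes a homeodomain protein that responds to Wingless (Wg) in the pouch. In wild-type discs, Notch signaling at the boundary between the dorsal and ventral compartments turns on *wg*, and the Wg, Hedgehog and Dpp pathways then pattern the pouch. Loss of Scrib, a protein that maintains apicobasal polarity, turns the disc into a growing mass, the *scrib* mutant tumor, in larvae that do not pupariate in time.

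Expression is given as the mean over the cells of a class in 1 library, in UMIs (unique molecular identifiers, which count captured RNA molecules) per 10000 UMIs of the cell. Cells held a median of 18299 to 23326 UMIs in the 4 libraries. Pouch-like cells had median totals of 15921, 17694, 19602 and 19953.5 UMIs on days 4, 5, 8 and 14, against 21570.5, 18544, 17643 and 18641 in marker-negative cells, so they were the shallower class on days 4 and 5 and the deeper one on days 8 and 14. Ribosomal protein genes took 54.6, 51.0, 47.5 and 39.7% of the UMIs of pouch-like cells and 46.7, 45.6, 46.6 and 40.9% of those of marker-negative cells on days 4, 5, 8 and 14. Between 5 and 34 cell barcodes were shared by any pair of libraries. The smallest class, pouch-like cells of day 4, held 317391 UMIs in all, so 3 UMIs, the limit that a count of 0 allows, correspond to a level of 0.0945 per 10000 there. The same limit was 0.0237, 0.00933 and 0.0158 on days 5, 8 and 14.

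The share of pouch-like cells was larger at each later age. It was 0.449% at 4 days AEL, with an exact 95% interval of 0.262% to 0.718%, and 0.976% at 5 days (0.751% to 1.25%). At 8 days it was 4.93% (4.19% to 5.75%) and at 14 days 8.11% (6.57% to 9.87%). These intervals cover counting error only, and with 1 library per age no test between ages was possible. Thinning every cell to 12000 UMIs left out the 355 and 953 shallower cells of days 4 and 5 and none of the later days, and the shares were then 0.233%, 0.527%, 3.70% and 5.68% on days 4, 5, 8 and 14. A stricter rule of at least 2 UMIs of each gene kept 3, 18, 85 and 46 cells, or 0.0793%, 0.279%, 2.74% and 4.14% of the libraries. The order of the ages was the same under all 3 rules, and the stricter rule lowered the day 4 share most in proportion.

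**Figure D1:**
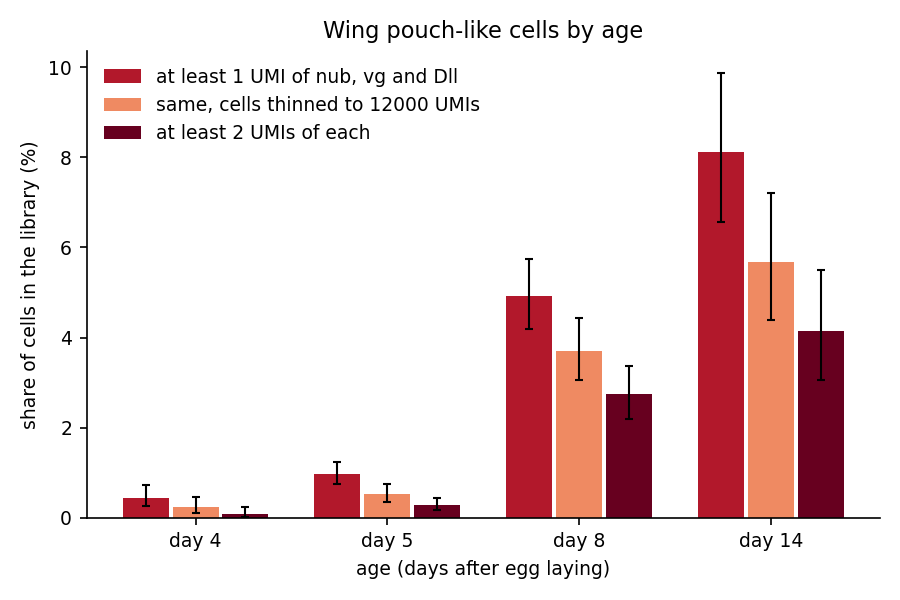
Share of the cells of each library (%, vertical axis) that were pouch-like, by age in days after egg laying, under the rule of at least 1 UMI of *nub*, *vg* and *Dll*, the same rule after thinning each cell to 12000 UMIs, and a rule of at least 2 UMIs of each gene; lines are exact 95% binomial intervals, which cover counting error only. The bars of the first rule stand at 0.449%, 0.976%, 4.93% and 8.11%, and the thinned and stricter bars are lower at every age and keep the order.

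The 3 genes that chose the cells differed in how widely they were found. *vg* was found in 71.9, 62.4, 50.0 and 49.5% of all cells on days 4, 5, 8 and 14, *nub* in 5.79, 8.18, 16.9 and 27.9% and *Dll* in 1.90, 3.35, 8.73 and 13.3%. The share of cells with *vg* was thus lower at later ages while those with *nub* and *Dll* were higher, and *Dll* was the rarest of the 3 in every library. In myoblast-like cells, defined by at least 3 of 7 muscle precursor markers and numbering 152, 372, 209 and 51, *nub* was found in 3.29, 4.57, 5.26 and 15.7% and *Dll* in 0.658, 1.34, 1.91 and 5.88%, at median totals of 16923, 16229, 16357 and 18872 UMIs against 23625, 19459, 18442 and 19232 in the other cells. Each of these shares was below the share over all cells of the same library. *vg*, which wing disc myoblasts are known to use as well, was found in 30.3, 35.2, 52.2 and 70.6% of them.

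Within pouch-like cells the mean level of *nub* was 1.25, 1.14, 2.65 and 2.88 UMIs per 10000 on days 4, 5, 8 and 14, that of *vg* was 4.19, 3.70, 4.83 and 5.10 and that of *Dll* was 1.19, 0.890, 1.75 and 1.49. The median cell held 1, 1, 4 and 4 UMIs of *nub*, 7, 6, 8 and 8 of *vg* and 1, 1, 3 and 2 of *Dll*. Membership often rested on a single molecule, since the lowest of the 3 genes was at 1 UMI in 14 of 17, 45 of 63, 68 of 153 and 44 of 90 members. Just outside the rule were 241, 546, 330 and 186 cells with 2 of the 3 genes, of which 191, 409, 227 and 138 lacked *Dll*. Their summed UMIs of the 3 genes had medians of 7, 6, 8 and 8, against 11, 10, 17 and 16.5 in members. Of the cells that held *Dll*, 23.6%, 31.0%, 62.4% and 68.9% also held *nub*.

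Myoblast and blood cell markers were few in members. At least 3 myoblast markers were found in 1 member of each library, and the 7 markers summed to 0.215, 0.142, 0.276 and 0.303 UMIs per 10000 in pouch-like cells, against 0.820, 0.740, 0.597 and 0.462 in marker-negative cells. *twi*, the gene that defines these precursors, was at 0 in the members of day 4 and found in 1 member of each later library. It was 1 of the 2 myoblast list genes tested and was lower in pouch-like cells (log2 ratio -1.86, limma adjusted p = 0.00367). The other tested gene had the opposite sign and was not called, and the list median was -0.85. *Mef2* made up 54 of the 57 UMIs of the 7 markers in members of day 14. None of 7 blood cell markers was listed in all 4 files, and the 1 listed on days 5 and 8 was at 0 in members. The 3 neural markers listed summed to 0.0551, 0.0969, 0.190 and 0.271 in pouch-like cells and 0.107, 0.108, 0.147 and 0.213 in marker-negative cells. Of 5 tracheal markers 4 were listed, and they summed to 10.8, 7.98, 7.08 and 7.94 in pouch-like cells and 7.90, 7.54, 10.6 and 12.6 in marker-negative cells, nearly all of it *verm* and *serp*, which were found in most cells of these discs. The 2 digestive amylase genes summed to 0, 0.195, 0.482 and 0.00543 in pouch-like cells, against 5.43, 5.27, 1.33 and 0.0236 in marker-negative cells. No call was made for the 2 tracheal genes, the 1 neural gene and the 2 amylase genes tested, with list medians of -0.15, 0.02 and -2.86 on the log2 scale and limma adjusted p of 0.0548 and 0.0555 for *Amy-p* and *Amy-d*. Scaled to UMIs outside the ribosomal protein genes, a choice made after seeing the data, both amylase genes were called lower. An epithelial comparison left out marker-negative cells with at least 2 myoblast or 2 tracheal markers. Members were not filtered in this way. At least 2 tracheal markers were found in 17 of 17, 61 of 63, 136 of 153 and 73 of 90 members. Marker-negative cells with as many numbered 892, 1970, 997 and 350. Against the marker-negative cells that were kept, which were chosen by these markers, both tracheal genes were called higher, with a median of 2.73. Calls that the epithelial comparison changed are given beside the genes or the counts of their list. A further comparison, chosen after seeing the data, left out only marker-negative cells with at least 2 myoblast markers. It kept 933, 2108, 1282 and 444 marker-negative cells on days 4, 5, 8 and 14. Beyond these comparisons the part of other cell types in the results was not tested.

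The first comparison asked which other genes were higher or lower in pouch-like than in marker-negative cells of the same disc. limma was fitted to log2(mean + 0.05) with the library as a block, so the 4 libraries, which differ in age, served as the replicates, and *nub*, *vg* and *Dll* were not tested. Of 5424 genes tested, 331 were higher in pouch-like cells (6.1%) and 477 were lower (8.79%) at an adjusted p under 0.05, and the median log2 ratio of all tested genes was -0.03. Genes could be named among the 15 highest or 15 lowest only if they moved the same way in all 4 libraries. The counts leaned on days 5 and 8. Without day 5 the counts were 60 higher and 111 lower, and without day 8 they were 109 and 205. Of the 331 higher and 477 lower genes, 209 and 189 kept the call under the epithelial comparison. With only marker-negative cells of at least 2 myoblast markers left out, 313 and 458 kept it.

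Other genes of the pouch were higher in the cells that the 3 genes had picked out. Of 13 tested genes of a pouch list, 8 were higher and 1 was lower, against 6.1% and 8.79% of all genes tested, and the list's median log2 ratio was 1.27. *rn*, which encodes a zinc-finger transcription factor of the pouch, averaged 0.430, 0.387, 0.755 and 0.652 UMIs per 10000 in pouch-like cells on days 4, 5, 8 and 14, against 0.0127, 0.00682, 0.00741 and 0.00951 in marker-negative cells. The classes did not overlap, and every library showed the difference (log2 ratio 3.31, SE 0.20, limma adjusted p = 0.000181). *rn* was found in 8 of 17, 27 of 63, 100 of 153 and 59 of 90 members. Thinned to 12000 UMIs, 50.0, 37.5, 52.9 and 48.9% of pouch-like cells and 1.44, 0.767, 0.647 and 0.853% of marker-negative cells held it.

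*vvl*, which encodes another POU-domain factor, averaged 0.428, 0.586, 3.85 and 8.12 in pouch-like cells and 0.0515, 0.0750, 0.502 and 1.04 in marker-negative cells (log2 ratio 2.58, SE 0.14, limma adjusted p = 0.000154). Both classes stood higher at each later age, and the ratio between them stayed between 2.23 and 2.91 on the log2 scale. *nab*, whose product is a cofactor of Rotund, averaged 0.141, 0.165, 0.451 and 0.444 in pouch-like cells and 0.0208, 0.0174, 0.0142 and 0.0332 in marker-negative cells (log2 ratio 2.16, SE 0.28, limma adjusted p = 0.00359). The homeobox gene *dve* was at 0.0545, 0.119, 0.382 and 0.549 in pouch-like cells and 0.00414, 0.00439, 0.00120 and 0.00721 in marker-negative cells (log2 ratio 2.26, SE 0.41, limma adjusted p = 0.0126). Its day 4 value in pouch-like cells is 1 UMI, and it was more abundant in the pouch-like cells of days 8 and 14 than in those of days 4 and 5. *sd*, the DNA-binding partner of Vestigial, was at 3.92, 4.34, 5.09 and 5.43 in pouch-like cells against 1.86, 1.76, 1.76 and 2.21 in marker-negative cells (log2 ratio 1.28, SE 0.10, limma adjusted p = 0.000561).

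The Dpp targets of the pouch differed from each other. *salm* and *salr*, which encode zinc-finger proteins of the central pouch, were higher with log2 ratios of 1.31 (adjusted p = 0.0138) and 0.85 (adjusted p = 0.0244), and both lost the call in the epithelial comparison. *bi*, the T-box gene also known as *omb*, averaged 0.532, 1.64, 1.76 and 5.80 in pouch-like cells and 0.594, 0.539, 1.11 and 1.99 in marker-negative cells and did not pass the test (log2 ratio 0.88, SE 0.27, limma adjusted p = 0.0653). Its classes overlapped, with a day 4 value that was slightly lower in pouch-like cells and a day 14 value well above. *Dad*, which encodes an inhibitory Smad, had a log2 ratio of -0.70 (adjusted p = 0.132), and the vein gene *kni* had -1.35 (adjusted p = 0.0589). *net*, a repressor of vein fate, was higher at 1.27 (adjusted p = 0.00630). *fj*, which encodes a Golgi kinase acting on the cadherins Fat and Dachsous, was the only pouch list gene called lower, at 1.60, 1.84, 2.95 and 6.43 in pouch-like cells against 3.39, 3.93, 5.08 and 9.12 in marker-negative cells (log2 ratio -0.85, SE 0.12, limma adjusted p = 0.00453). It lost the call under the epithelial comparison (-0.39, adjusted p = 0.0758), which left 6 genes of the pouch list higher and none lower, and also without day 5 (adjusted p = 0.0528).

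**Figure D2:**
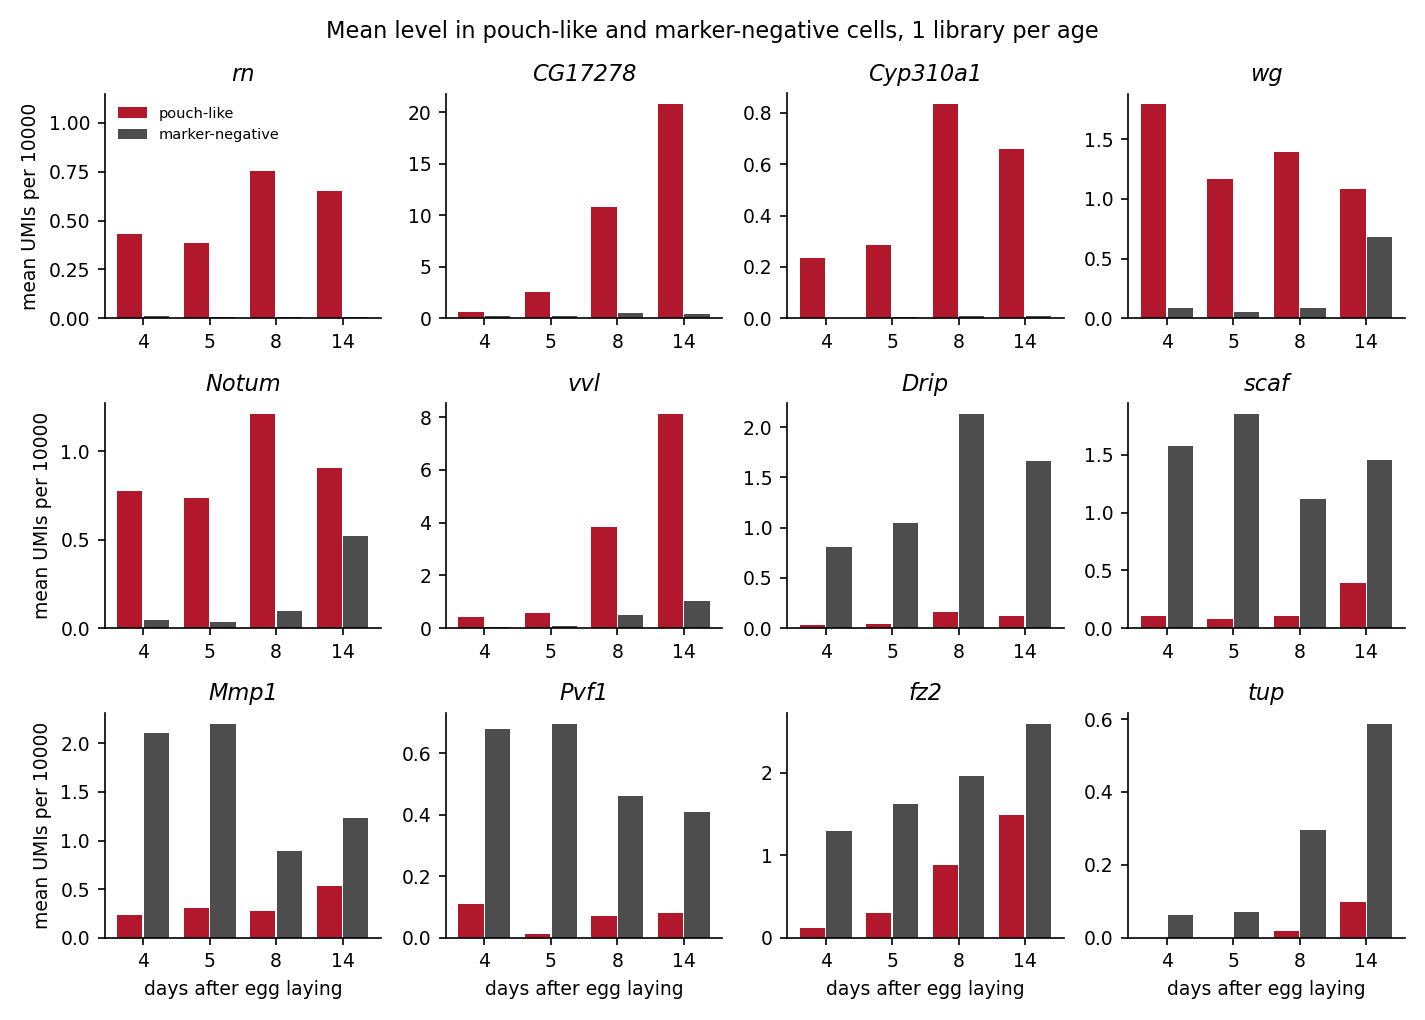
Mean UMIs per 10000 (vertical axes, linear from 0) of 12 genes in pouch-like cells (red, left) and marker-negative cells (grey, right) of the 4 libraries, by age in days after egg laying; 1 library per age, so no error bars are drawn. *rn*, *Cyp310a1* and *vvl* stand higher and *Drip*, *Mmp1* and *Pvf1* lower in the pouch-like cells of every library, while the marker-negative level of *wg* is highest on day 14, at 0.679.

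The gene with the highest ratio that met the naming rule was *CR44334*, a long noncoding RNA gene. Its level was 0.298, 0.749, 1.32 and 1.45 in pouch-like cells on days 4, 5, 8 and 14, against 0.00183, 0.00482, 0.00582 and 0.0150 in marker-negative cells (log2 ratio 3.94, SE 0.30, limma adjusted p = 0.000527). The classes were far apart in every library, although the day 4 value of pouch-like cells rests on 9 UMIs. *CG17278*, listed in RefSeq as *peg* and encoding a secreted protein that binds Wg, averaged 0.576, 2.56, 10.8 and 20.8 in pouch-like cells and 0.214, 0.192, 0.480 and 0.439 in marker-negative cells (log2 ratio 3.61, SE 0.57, limma adjusted p = 0.00721). Its log2 ratios were 1.24, 3.43, 4.36 and 5.41 on days 4, 5, 8 and 14, so the pouch-like cells of day 14 stood highest by a wide margin, and the call was lost without day 5 (adjusted p = 0.0598). *Cyp310a1*, a cytochrome P450 gene, was at 0.236, 0.285, 0.833 and 0.660 in pouch-like cells and 0.00168, 0.00444, 0.00948 and 0.0105 in marker-negative cells (log2 ratio 3.13, SE 0.26, limma adjusted p = 0.000706). *CG9008*, for which no role is given here, was at 0.145, 0.218, 1.07 and 1.41 in pouch-like cells and 0.0180, 0.0137, 0.0189 and 0.0325 in marker-negative cells (log2 ratio 2.94, SE 0.44, limma adjusted p = 0.00611). For these 2 genes the pouch-like level was several times as high on days 8 and 14 as on days 4 and 5. The calls of *CR44334*, *CG17278*, *Cyp310a1* and *CG9008* were lost with members of at least 2 UMIs of each gene, with adjusted p of 0.0560, 0.128, 0.0684 and 0.0953, a rule that leaves 3 cells on day 4.

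Several of the other 15 highest genes encode regulators of transcription or of cell contact. *trn*, which encodes a leucine-rich repeat membrane protein, averaged 4.62, 2.76, 2.36 and 3.28 in pouch-like cells and 0.402, 0.299, 0.462 and 1.37 in marker-negative cells (log2 ratio 2.46, SE 0.31, limma adjusted p = 0.00356). *Bx*, which encodes a LIM-only protein that limits the dorsal selector Apterous, was at 0.618, 0.705, 0.982 and 1.10 in pouch-like cells and 0.0644, 0.0989, 0.136 and 0.314 in marker-negative cells (log2 ratio 2.26, SE 0.17, limma adjusted p = 0.000480). The zinc-finger gene *elB* was at 1.99, 2.37, 2.41 and 3.01 in pouch-like cells and 0.425, 0.354, 0.529 and 0.902 in marker-negative cells (log2 ratio 2.12, SE 0.15, limma adjusted p = 0.000398). In each of the 3 genes the lowest pouch-like library was above the highest marker-negative library.

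*tsl*, which encodes a secreted protein known from Torso signaling in the embryo, had a log2 ratio of 2.12 (adjusted p = 0.000133). *Lsd-2*, which encodes a perilipin of lipid droplets, was at 0.806, 0.959, 1.62 and 2.63 in pouch-like cells and 0.164, 0.223, 0.342 and 0.507 in marker-negative cells (log2 ratio 2.06, SE 0.11, limma adjusted p = 0.000133). The levels of *Lsd-2* were higher at each later age in both classes, and its log2 ratio stayed between 1.89 and 2.26.

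Genes of the dorsal-ventral boundary and of the Notch and Wg pathways were mostly higher in pouch-like cells. Of 16 tested genes of this list, 10 were higher and 1 was lower, against 6.1% and 8.79% of all genes tested, with a median log2 ratio of 0.76. With the epithelial comparison *Ser* and *fz* lost the call, which left 8 higher. *wg* itself averaged 1.79, 1.17, 1.39 and 1.08 in pouch-like cells and 0.0842, 0.0569, 0.0869 and 0.679 in marker-negative cells (log2 ratio 2.83, SE 0.48, limma adjusted p = 0.00937). *Wnt6*, another Wnt ligand gene, averaged 1.35, 0.810, 0.672 and 0.639 in pouch-like cells and 0.0726, 0.0416, 0.115 and 0.302 in marker-negative cells (log2 ratio 2.46, SE 0.38, limma adjusted p = 0.00677). In both genes the pouch-like level was highest on day 4 and the marker-negative level on day 14, so the gap was narrowest on day 14, with log2 ratios of 0.64 and 0.97. *Notum*, a target of Wg that encodes an enzyme inactivating Wnt proteins, averaged 0.776, 0.734, 1.21 and 0.903 in pouch-like cells and 0.0459, 0.0324, 0.0940 and 0.519 in marker-negative cells (log2 ratio 2.56, SE 0.40, limma adjusted p = 0.00677). Without day 5 the calls of *wg*, *Wnt6* and *Notum* were lost, with adjusted p of 0.0780, 0.0617 and 0.0636.

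The receptors of Wg moved in opposite directions. *fz3*, a receptor gene that Wg is known to induce, averaged 0.290, 0.157, 0.276 and 0.286 in pouch-like cells and 0.0233, 0.0277, 0.0580 and 0.0894 in marker-negative cells (log2 ratio 1.62, SE 0.19, limma adjusted p = 0.00286). *fz2*, a receptor gene that Wg is known to repress, averaged 0.120, 0.295, 0.884 and 1.50 in pouch-like cells and 1.30, 1.62, 1.96 and 2.60 in marker-negative cells (log2 ratio -1.79, SE 0.34, limma adjusted p = 0.0153). *fz2* was the only gene of the list called lower, and its pouch-like level was higher at each later age. *fz* had a log2 ratio of 0.66 (adjusted p = 0.0208). Strand use in counting was not given in the sources used here, so for named genes that overlap another annotated gene, such as *rn*, *Cyp310a1*, *CG9008*, *magu*, *Bx*, *Drip*, *CG13117*, *Mmp1*, *puc*, *Ilp8* and *mamo*, reads of the pair could not be told apart. The same holds for *nub*, one of the genes that chose the members, which *Ref2* overlaps on the opposite strand. The coreceptor gene *arr*, the β-catenin gene *arm*, *Axn*, *pan* and *nkd* did not pass the test, with log2 ratios between -0.07 and 0.56.

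Among the Notch genes, the ligand gene *Dl* averaged 0.932, 1.12, 2.14 and 2.34 in pouch-like cells and 0.451, 0.429, 0.711 and 1.24 in marker-negative cells (log2 ratio 1.17, SE 0.13, limma adjusted p = 0.00238). The ligand gene *Ser* had a log2 ratio of 0.87 (adjusted p = 0.00583), the receptor gene *N* had 0.66 (adjusted p = 0.00629), and *fng*, whose product modifies Notch, had 0.86 (adjusted p = 0.0295). *ap*, the dorsal selector, averaged 1.56, 1.05, 0.891 and 0.976 in pouch-like cells and 0.318, 0.343, 0.341 and 0.657 in marker-negative cells (log2 ratio 1.35, SE 0.23, limma adjusted p = 0.00962). It was found in 14 of 17, 51 of 63, 92 of 153 and 61 of 90 members, against 26.8, 28.7, 28.7 and 50.3% of marker-negative cells. *ct*, a boundary gene under Notch, was too low to be tested and was found in 1, 0, 10 and 1 members.

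*magu*, also known as *pent* and encoding a secreted protein that shapes the Dpp gradient, had a marker-negative level that was highest on day 14, as *wg* had. Its level was 1.73, 0.667, 1.58 and 1.97 in pouch-like cells and 0.0246, 0.0285, 0.266 and 1.60 in marker-negative cells (log2 ratio 2.61, SE 0.57, limma adjusted p = 0.0256). The log2 ratios were 4.58, 3.19, 2.37 and 0.29 on days 4, 5, 8 and 14. The pouch-like level was about the same on days 4 and 14, while the marker-negative level was 1.60 on day 14, so the classes nearly met there. The call was lost without day 5 (adjusted p = 0.142) and without day 8 (adjusted p = 0.0648).

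Notum genes were lower. All 6 tested genes of the notum list were lower in pouch-like cells, with a median log2 ratio of -1.13, against 8.79% of all genes. They were the Pax genes *eyg* and *toe*, the LIM-homeobox gene *tup* and the iroquois genes *ara*, *caup* and *mirr*. *tup* was at 0, 0, 0.0178 and 0.0985 in pouch-like cells and 0.0629, 0.0705, 0.296 and 0.587 in marker-negative cells (log2 ratio -1.72, SE 0.25, limma adjusted p = 0.00570). It was found in 0 of 17 members on day 4 and 0 of 63 on day 5, and in 12 of 90 on day 14. *caup* was at 0.0178, 0.0472, 0.243 and 0.923 in pouch-like cells and 0.152, 0.213, 0.710 and 1.57 in marker-negative cells (log2 ratio -1.28, SE 0.16, limma adjusted p = 0.00347). The levels of these genes were higher in both classes on day 14 than on day 8. *toe* and *ara* lost the call under the epithelial comparison.

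Hinge genes were mixed. *zfh2* and *Sox15*, transcription factor genes of the hinge, were higher, with log2 ratios of 1.39 (adjusted p = 0.00173) and 1.41 (adjusted p = 0.0114). *tsh*, a zinc-finger gene of the proximal disc, was at 0.121, 0.162, 0.292 and 0.449 in pouch-like cells and 0.506, 0.665, 0.771 and 1.10 in marker-negative cells (log2 ratio -1.48, SE 0.14, limma adjusted p = 0.00107). *hth*, a homeobox gene known from the hinge and notum and kept out of the distal pouch in wild-type discs, was at 9.62, 8.24, 11.0 and 9.95 in pouch-like cells and 7.09, 7.33, 9.96 and 14.7 in marker-negative cells (log2 ratio 0.05, SE 0.15, limma adjusted p = 0.846). It was found in 100%, 95.2%, 91.5% and 87.8% of members and in 99.5% to 99.8% of marker-negative cells. The list's median was 0.26 over 6 tested genes, of which 2 were higher and 1 lower, against 6.1% and 8.79% of all genes tested.

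**Figure D3:**
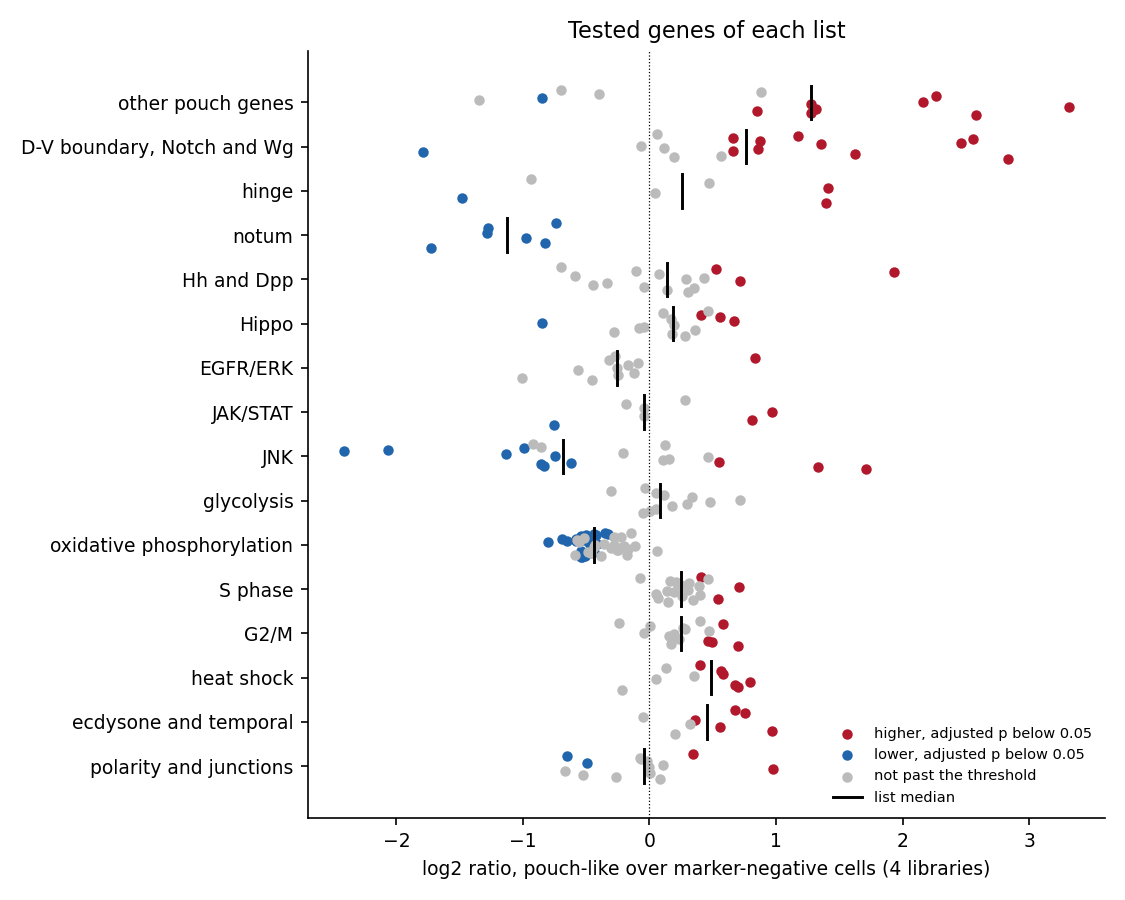
Log2 ratio of pouch-like over marker-negative cells (horizontal axis) for each tested gene of 16 lists, from limma over 4 libraries; red and blue points passed an adjusted p of 0.05 as higher or lower, grey points did not, and black bars are list medians. The medians run between -1.13 for the notum list and 1.27 for the list of other pouch genes.

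Of 15 tested Hedgehog and Dpp pathway genes, 3 were higher and none lower, against 6.1% and 8.79% of all genes tested, with a median of 0.14. *brk*, a repressor of Dpp targets, averaged 0.341, 0.523, 0.972 and 0.532 in pouch-like cells and 0.0405, 0.0601, 0.126 and 0.306 in marker-negative cells (log2 ratio 1.93, SE 0.29, limma adjusted p = 0.00584). *hh*, the ligand of the posterior compartment, had a log2 ratio of 0.72 (adjusted p = 0.0228), and *Mad*, which encodes the Smad of the pathway, had 0.52 (adjusted p = 0.0349). *hh* lost the call under the epithelial comparison. *en*, the posterior selector, was found in 1 of 17, 4 of 63, 25 of 153 and 38 of 90 members, or 5.88, 6.35, 16.3 and 42.2%, against 8.49, 6.19, 9.99 and 17.5% of marker-negative cells. After thinning, *en* was found in 8.33, 3.57, 8.50 and 33.3% of pouch-like cells and 4.43, 4.91, 7.48 and 12.8% of marker-negative cells. *ci*, the effector of Hedgehog signaling in the anterior compartment, was found in 14 of 17, 48 of 63, 107 of 153 and 63 of 90 members, and cells with *ci* and without *en* were 82.4, 74.6, 62.7 and 47.8% of members. This last share had an exact 95% interval of 56.6% to 96.2% in the youngest library and of 37.1% to 58.6% in the oldest. Members with both genes were 0 of 17, 1 of 63, 11 of 153 and 20 of 90.

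Genes associated with JNK signaling, the stress kinase pathway that the study followed in these tumors, were lower in pouch-like cells in 8 of 18 tested and higher in 3, against 8.79% and 6.1% of all genes tested, with a median of -0.68. *Mmp1*, a matrix metalloproteinase gene and JNK target, averaged 0.234, 0.311, 0.271 and 0.530 in pouch-like cells and 2.10, 2.20, 0.896 and 1.23 in marker-negative cells (log2 ratio -2.06, SE 0.29, limma adjusted p = 0.00465). The classes did not overlap, and the gap was wider on days 4 and 5, with log2 ratios of -2.92, -2.64, -1.56 and -1.14 on days 4, 5, 8 and 14. *Pvf1*, which encodes a ligand of the PDGF and VEGF receptor family, averaged 0.111, 0.0118, 0.0721 and 0.0811 in pouch-like cells and 0.679, 0.696, 0.460 and 0.409 in marker-negative cells (log2 ratio -2.41, SE 0.28, limma adjusted p = 0.00262). *puc*, the phosphatase gene that reports JNK activity, averaged 0.213, 0.211, 0.314 and 0.517 in pouch-like cells and 0.661, 0.578, 0.373 and 0.706 in marker-negative cells (log2 ratio -0.83, SE 0.22, limma adjusted p = 0.0426).

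The transcription factor genes *kay* and *Jra*, which encode Fos and Jun, had log2 ratios of -0.62 (adjusted p = 0.0122) and -0.99 (adjusted p = 0.0422), and the kinase gene *msn* had -0.86 (adjusted p = 0.0295). The filamin gene *cher* had -1.13 (adjusted p = 0.0133), and the adaptor gene *cindr* had -0.74 (adjusted p = 0.0127). With the epithelial comparison *puc*, *kay*, *Jra*, *msn*, *cher* and *cindr* lost the call and kept the sign, which left 2 lower genes, *Mmp1* and *Pvf1*. With only marker-negative cells of at least 2 myoblast markers left out, 8 genes of the list were called lower and 2 higher. The 3 higher genes were *wgn*, a TNF receptor gene, and the death genes *rpr* and *hid*. *wgn* averaged 0.292, 0.171, 0.266 and 0.546 in pouch-like cells and 0.0446, 0.0493, 0.0549 and 0.0746 in marker-negative cells (log2 ratio 1.71, SE 0.20, limma adjusted p = 0.00262). *rpr* averaged 2.32, 1.66, 1.46 and 1.77 in pouch-like cells and 0.535, 0.456, 0.647 and 1.29 in marker-negative cells (log2 ratio 1.33, SE 0.24, limma adjusted p = 0.0129), and *hid* had a log2 ratio of 0.55 (adjusted p = 0.0376). *hid* lost the call under 10 alternatives, the epithelial comparison (0.04, adjusted p = 0.873) and each age left out among them. The list's median was -0.72, -1.0, -0.12 and 0.03 on days 4, 5, 8 and 14, so it was near 0 on the later days.

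The 15 lowest genes that met the naming rule were led by *Drip*, which encodes an aquaporin. *Drip* averaged 0.0316, 0.0394, 0.162 and 0.124 in pouch-like cells and 0.807, 1.04, 2.13 and 1.66 in marker-negative cells (log2 ratio -3.42, SE 0.11, limma adjusted p = 1.47e-05). *scaf*, a serine protease-like gene known as a JNK target in the embryo, averaged 0.109, 0.0830, 0.108 and 0.393 in pouch-like cells and 1.58, 1.86, 1.12 and 1.46 in marker-negative cells (log2 ratio -2.96, SE 0.30, limma adjusted p = 0.00143). *Idgf4*, which encodes a chitinase-like secreted protein, averaged 1.26, 1.33, 1.76 and 2.27 in pouch-like cells and 7.44, 8.20, 11.9 and 12.5 in marker-negative cells (log2 ratio -2.56, SE 0.09, limma adjusted p = 1.47e-05). In each of the 3 genes the highest pouch-like library was below the lowest marker-negative library. Under the epithelial comparison the ratio of *Drip* was -0.28 (adjusted p = 0.639) and that of *Idgf4* was -0.91 (adjusted p = 0.0642), while *scaf* kept its call. Since the tracheal markers *verm* and *serp* were found in most cells, that comparison kept 48, 158, 310 and 111 marker-negative cells.

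*SPARC*, which encodes a collagen-binding protein of the basement membrane, averaged 0.516, 0.119, 0.103 and 0.143 in pouch-like cells and 2.78, 2.66, 2.11 and 0.474 in marker-negative cells (log2 ratio -2.90, SE 0.40, limma adjusted p = 0.00455). Its day 4 value in pouch-like cells came from 29 UMIs in 5.88% of the 17 members. When marker-negative cells with at least 2 myoblast markers were left out, a choice made after seeing the data, the sign of the log2 ratio turned, at 0.73 (adjusted p = 0.215). Under the epithelial comparison it was -0.92 (adjusted p = 0.233). *wun2*, a lipid phosphate phosphatase gene, was at 0.309, 0.0934, 0.0275 and 0.0415 in pouch-like cells and 1.59, 1.30, 0.490 and 0.442 in marker-negative cells (log2 ratio -2.66, SE 0.18, limma adjusted p = 0.000341). The noncoding RNA gene *CR45018* had a log2 ratio of -3.23 (adjusted p = 5.8e-05). Of the genes known only by a number, *CG13117* had -3.23 (adjusted p = 0.00129), *CG12911* -3.01 (adjusted p = 0.000702), *CG9628* -2.67 (adjusted p = 0.0232), *CG6357* -2.66 (adjusted p = 0.000656), *CG1698* -2.60 (adjusted p = 0.000742), *CG4115* -2.59 (adjusted p = 0.0110), *CG8066* -2.46 (adjusted p = 5.8e-05) and *CG14301* -2.46 (adjusted p = 0.000181). Of these *CG12911*, *CG9628*, *CG6357* and *CG14301* lost the call under the epithelial comparison. The cuticle protein gene *Cpr64Aa* was at 0, 0, 0.0174 and 0.106 in pouch-like cells and 0.0406, 0.0239, 1.66 and 2.18 in marker-negative cells (log2 ratio -2.48, SE 0.67, limma adjusted p = 0.0475), and it lost the call under 12 of 18 alternatives.

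The remaining lists showed smaller differences. Oxidative phosphorylation genes were lower in 21 of 46 and higher in none, against 8.79% and 6.1% of all genes tested, with a median of -0.44 and medians by age of -0.81, -0.45, -0.30 and -0.19 on days 4, 5, 8 and 14, so the gap was narrower at each later age. The cytochrome c gene *Cyt-c-p* had the lowest ratio of them, -0.80 (adjusted p = 0.0370). The ribosomal share given above was higher in pouch-like cells of days 4 and 5 than in marker-negative cells. With levels scaled to UMIs outside the ribosomal protein genes, a choice made after seeing the data, 23 of the 46 were lower and the median was -0.36. With the epithelial comparison 31 were lower and the median was -0.51. Of 12 glycolysis genes none passed the test, with a median of 0.09.

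Heat shock genes were higher in 6 of 10 and lower in none, against 6.1% and 8.79% of all genes tested, with a median of 0.48. They were *Hsp23*, *Hsp26*, *Hsp68*, *Hsp70Aa*, *Hsp70Bc* and *DnaJ-1*, and the highest was *Hsp68* at 0.80 (adjusted p = 0.00937). The near-identical *Hsp70* copies share reads, so their single values are uncertain, and the discs were dissociated at 37 °C for 10 min, whose part in these values was not tested. In the ecdysone and temporal list 5 of 8 were higher, *EcR*, *br*, *Eip75B*, *chinmo* and *Imp*, with a median of 0.46, and *br* and *Imp* lost the call under the epithelial comparison. *chinmo*, a BTB zinc-finger gene that maintains an early larval state, averaged 15.3, 13.5, 13.6 and 15.3 in pouch-like cells and 6.11, 6.03, 7.86 and 10.1 in marker-negative cells (log2 ratio 0.97, SE 0.13, limma adjusted p = 0.00380). Its pouch-like level was nearly the same at all ages while the marker-negative level was highest on day 14.

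Cell cycle genes differed by small ratios, beside 6.1% and 8.79% of all genes tested that were higher and lower. The ratio was above 0 in 19 of 20 S phase genes and 14 of 16 G2/M genes, against 2549 of 5424 genes tested. Of 20 S phase genes 3 were higher, *dpa*, *Mcm5* and *CDC45L*, which belong to the replication helicase, and of 16 G2/M genes 4 were higher, *stg*, *polo*, *tum* and *Cks30A*, with list medians of 0.25 and 0.25. *stg*, the phosphatase gene that drives entry into mitosis, averaged 4.17, 4.58, 6.34 and 9.35 in pouch-like cells and 3.11, 3.15, 4.50 and 6.43 in marker-negative cells (log2 ratio 0.49, SE 0.08, limma adjusted p = 0.00821). With the epithelial comparison no S phase gene was called and *stg* was the only G2/M gene called, and *CDC45L* also did not pass against marker-negative cells matched on UMIs. Of 14 Hippo and growth genes *ex*, *d* and *Myc* were higher and *fj* lower, with a median of 0.19, and all 4 lost the call under the epithelial comparison. This list named *Diap1* by its other symbol, *th*, so *Diap1* was not counted in it. *Diap1* was called higher in the main fit. Of 11 EGFR and ERK genes *Egfr* alone passed, at 0.83 (adjusted p = 0.00587), with a list median of -0.25. *kek1* had a ratio of -0.25 (adjusted p = 0.668), *sty* of -1.0 (adjusted p = 0.129), *aos* of -0.17 (adjusted p = 0.680) and *vn* of -0.46 (adjusted p = 0.273). In the JAK/STAT list *ken* and *chinmo* were higher and the ligand gene *upd1* lower of 7 tested, with a median of -0.04. Of 14 polarity and junction genes *Fas3* and *grh* were higher and the septate junction genes *cora* and *Nrx-IV* lower, with a median of -0.04, and of these 4 only *grh* kept the call under the epithelial comparison. The *scrib* transcripts were at 0.0282, 0.141, 0.263 and 0.352 in pouch-like cells and 0.226, 0.225, 0.226 and 0.336 in marker-negative cells, with a log2 ratio of -0.52 (adjusted p = 0.276). None of 4 dosage compensation genes passed, with a list median of 0.24 and *roX1* at 0.33 (adjusted p = 0.267) and *roX2* at -0.31 (adjusted p = 0.204).

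Cells outside the rule that held 2 of the 3 genes held the named genes at levels near to those of the members in many cases. *rn* averaged 0.430, 0.387, 0.755 and 0.652 in pouch-like cells on days 4, 5, 8 and 14, 0.366, 0.460, 0.590 and 0.561 in cells with 2 of the 3 genes, 0.0457, 0.0502, 0.0770 and 0.183 in cells with 1 and 0.0127, 0.00682, 0.00741 and 0.00951 in marker-negative cells. Cells with 2 genes stood close to the members, above them on day 5, and well above cells with 1 gene. *Cyp310a1* averaged 0.236, 0.285, 0.833 and 0.660 in pouch-like cells, 0.104, 0.249, 0.376 and 0.367 with 2 genes, 0.00366, 0.0211, 0.0347 and 0.0654 with 1 and 0.00168, 0.00444, 0.00948 and 0.0105 with none, in order in every library. Of the 15 highest genes 5 were in order in all 4 libraries, *Bx*, *Cyp310a1*, *Lsd-2*, *trn* and *tsl*, and 4 more in 3 libraries. *CG17278* was higher with 2 genes than in members on days 4, 5 and 8, at 1.55, 3.62 and 15, against 0.576, 2.56 and 10.8 in members. Of the 15 lowest genes 2 were in order in all 4 libraries, *CR45018* and *wun2*. All these genes were chosen by their difference between members and marker-negative cells, so the ends of each order were fixed beforehand. The share of all genes in such an order was not computed.

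**Figure D4:**
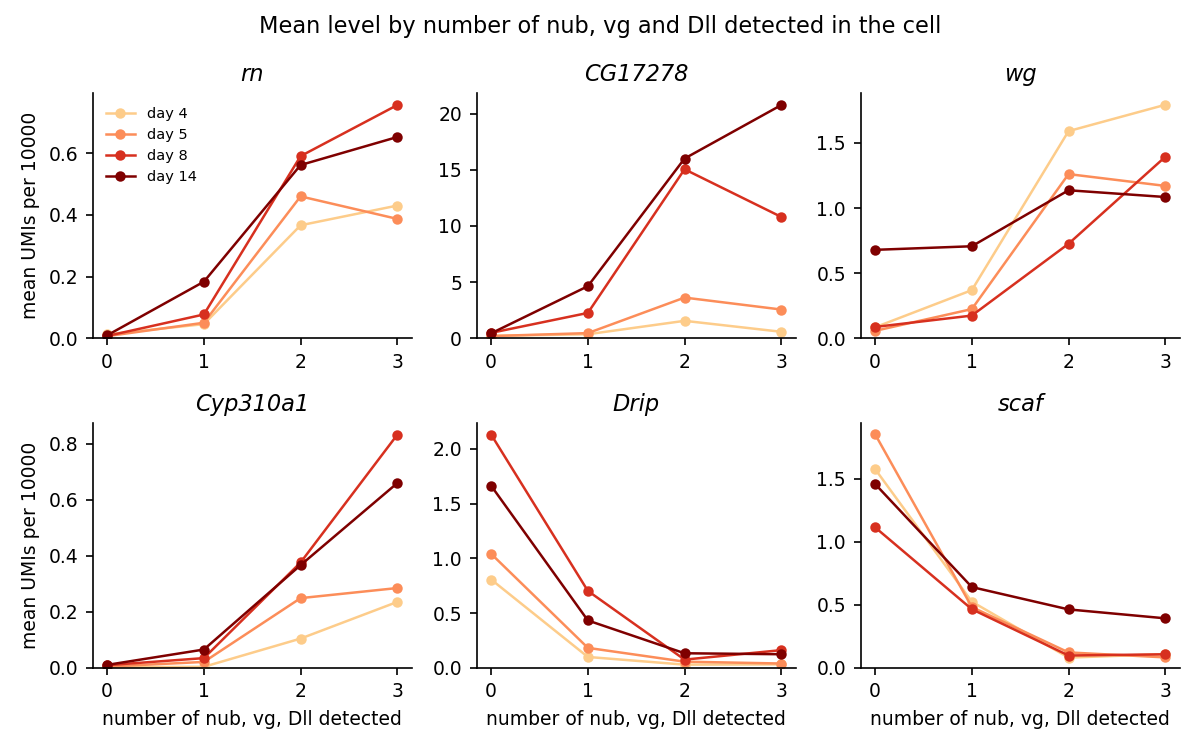
Mean UMIs per 10000 (vertical axes, linear from 0) of 6 genes in cells in which 0, 1, 2 or all 3 of *nub*, *vg* and *Dll* were detected (horizontal axes), with a line for each library, coloured by age. The *Cyp310a1* lines run upward at every step and the *CG17278* lines of days 4, 5 and 8 peak at 2 genes, *Drip* and *scaf* end lower in members than in cells with none, and cells holding 2 genes are close to members for *rn*, as on day 14 at 0.561 against 0.652 in members.

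The second comparison asked how pouch-like cells differed between ages. Each age had 1 library, so the values below have no test, and their half-widths (95%, normal approximation on the UMI sums) cover counting error only. Of 5713 genes that reached 0.1 UMIs per 10000 on either day, 1325 were higher by at least 1 on the log2 scale on day 14 than on day 4 (23.2%) and 75 were lower (1.31%). The median of all genes was 0.45, and it was 0.10 when levels were scaled to UMIs outside the ribosomal protein genes, with 1125 genes higher and 358 lower by at least 1. Ribosomal protein genes took 54.6% of the UMIs of pouch-like cells on day 4 and 39.7% on day 14. Between day 14 and day 8, which have more members, 172 of 5641 genes were higher (3.05%) and 14 were lower (0.248%), with a median of 0.21.

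*ImpL3*, *ImpL2* and *Argk* were among the 8 largest rises. *ImpL3*, the lactate dehydrogenase gene, averaged 0.0452, 0.209, 5.24 and 11.9 UMIs per 10000 in pouch-like cells on days 4, 5, 8 and 14, against 0.0640, 0.140, 1.13 and 8.30 in marker-negative cells. The day 4 value of pouch-like cells is 1 UMI, and the ratio of summed UMIs of day 14 over day 4 was 394.5 (exact interval 70.7 to 15590). *ImpL2*, which encodes a secreted inhibitor of insulin signaling, averaged 0.507, 2.21, 6.17 and 35.5 in pouch-like cells and 7.07, 7.11, 8.63 and 30.2 in marker-negative cells. Its pouch-like level was higher by 6.0 ± 0.69 on the log2 scale on day 14 than on day 4, against 2.09 in marker-negative cells. *Argk*, the arginine kinase gene, had no UMI in pouch-like cells of days 4 and 5 and averaged 0.998 on day 8 and 3.30 on day 14, at least 35.0-fold higher than on day 4 against the limit of 3 UMIs in the library.

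Growth factor genes were among the 8 largest rises. *bnl*, which encodes a fibroblast growth factor, had no UMI in pouch-like cells of days 4 and 5, 0.289 per 10000 on day 8 and 2.31 on day 14, at least 24.5-fold higher on day 14 than on day 4. *daw*, which encodes an Activin-like ligand, was likewise at 0 on days 4 and 5 and at 1.53 on day 14, at least 16.2-fold higher. *kek1*, an inhibitor of the EGF receptor and a target of its signaling, averaged 0.0724, 0.118, 1.25 and 3.60 in pouch-like cells and 0.288, 0.297, 0.663 and 2.31 in marker-negative cells. Day 14 was higher than day 4 by 4.90 ± 1.42 in pouch-like cells and by 2.80 in marker-negative cells. *Dgp-1* was higher by 5.61 ± 1.27 and *CG17278* by 5.06 ± 0.52. The day 4 value of *CG17278* came from 30 UMIs in 17.6% of the 17 members, and its half-width does not cover the spread between cells.

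Genes that stood lower on day 14 than on day 4 were fewer, and the 8 largest falls included 6 genes known only by a number. *mamo*, a BTB zinc-finger gene, averaged 3.70, 2.36, 0.959 and 0.556 in pouch-like cells and 1.85, 1.66, 1.34 and 0.857 in marker-negative cells, and in pouch-like cells its day 14 over day 4 log2 ratio was -2.63 ± 0.38. *PGRP-SA*, which encodes a receptor for bacterial peptidoglycan, averaged 1.72, 1.36, 0.972 and 0.399 in pouch-like cells and 1.37, 1.33, 0.983 and 0.916 in marker-negative cells, with a log2 ratio of -1.98 ± 0.52. Both genes were lower at each later age in pouch-like cells. The other 6 were *CG34445*, *CG30196*, *CG42808*, *CG9336*, *CG15611* and *CG9338*, with log2 ratios between -2.19 and -1.58.

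Day 14 also differed from day 8. *Ilp8*, which encodes a relaxin-like hormone that delays metamorphosis, averaged 0.129, 0.0470, 0.332 and 3.66 in pouch-like cells and 1.01, 0.560, 0.272 and 1.23 in marker-negative cells, and day 14 over day 8 was 3.28 ± 0.29 on the log2 scale in pouch-like cells. *Cyp18a1*, which encodes an ecdysone-inactivating P450, was higher by 3.24 ± 0.70, *CG15546* by 3.21 ± 0.98 and *bnl* by 2.80 ± 0.32. The notum genes *mirr* and *eyg* were higher by 2.67 ± 0.43 and 2.63 ± 0.76, and they remained below the marker-negative level of the same day, at 1.19 against 1.91 for *mirr* and 0.527 against 1.01 for *eyg*. The heat-inducible *Hsp70Bc* and *alphagamma-element:CR3286* were higher by 2.58 ± 0.23 and 2.77 ± 0.37. *brk* had a log2 ratio of -0.81 ± 0.32, *yellow-e3* of -1.83 ± 0.59 and *Cpr12A*, a cuticle gene, of -1.30 ± 0.33. *CR42491*, *CG10932*, *PGRP-SA*, *mamo* and *CG15611* were the other 5 lowest, between -1.19 and -0.73.

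**Figure D5:**
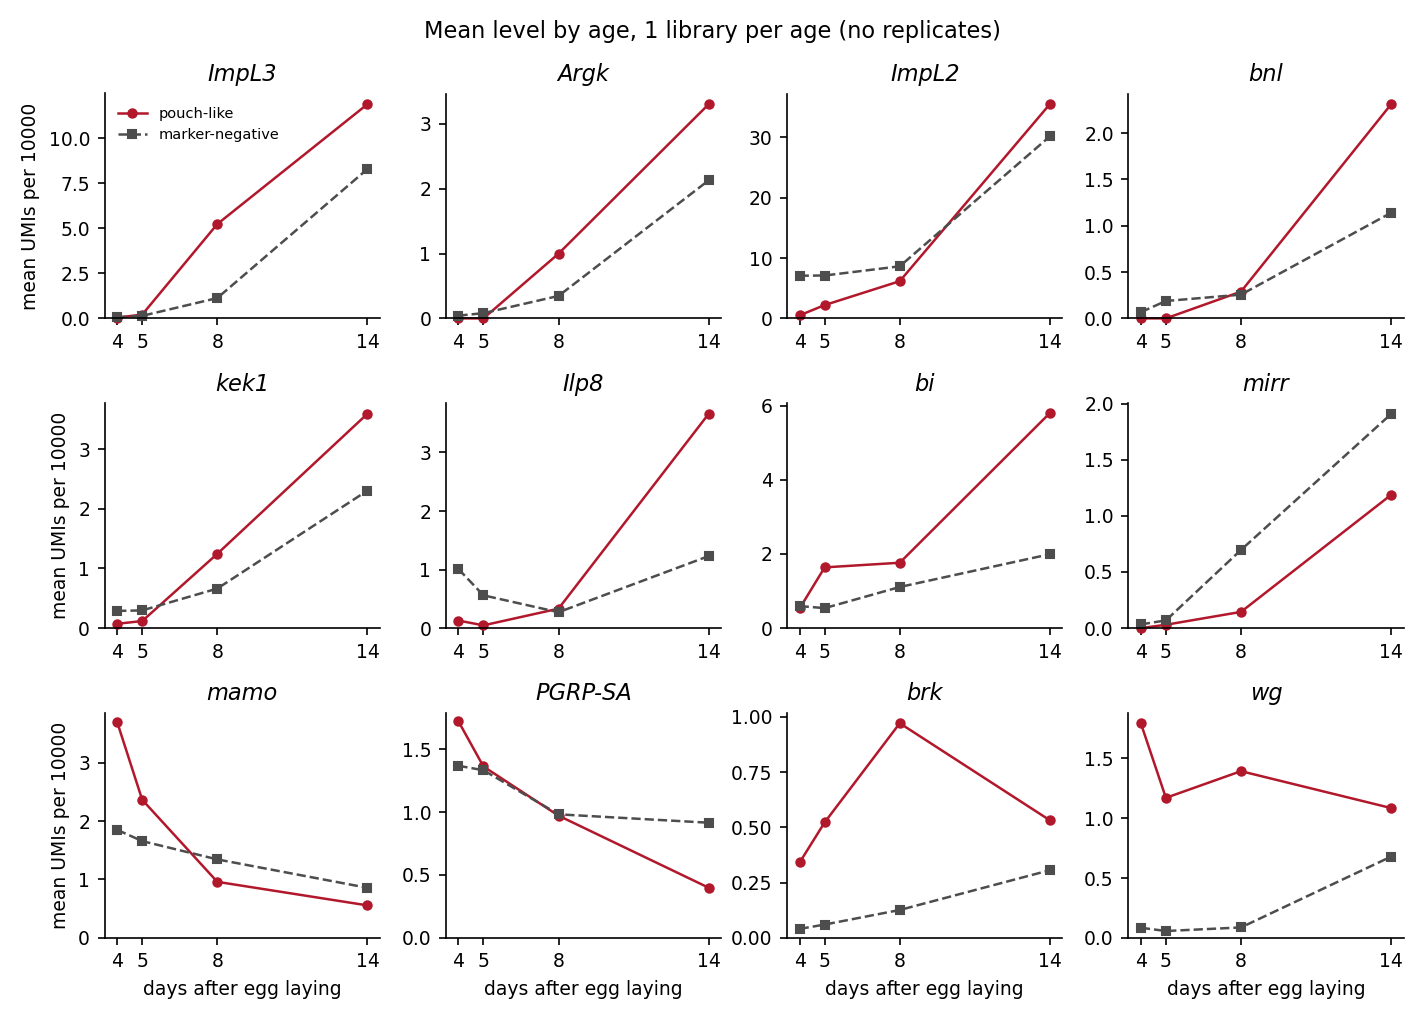
Mean UMIs per 10000 (vertical axes, linear from 0) of 12 genes against age in days after egg laying in pouch-like cells (red circles, solid) and marker-negative cells (grey squares, dashed); 1 library per age, so no error bars are drawn. *ImpL3*, *ImpL2*, *bnl*, *kek1* and *Ilp8* are highest on day 14 in pouch-like cells, as for *ImpL2* at 35.5, while *mamo* and *PGRP-SA* are lowest there.

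Glycolysis genes were higher in the later pouch-like cells, beside a median of 0.45 over all genes for day 14 over day 4. Over the 5308 tested genes that reached the minimum in pouch-like cells, this median was 0.43 there and 0.25 in marker-negative cells. Of 12 glycolysis genes 11 were higher by at least 1 on the log2 scale, against 23.2% of all genes, with a median of 2.33 in pouch-like cells and 1.73 in marker-negative cells. *Pfk*, a rate-limiting enzyme gene of the pathway, averaged 0.0821, 0.112, 0.598 and 1.33 in pouch-like cells, the first of these from 3 UMIs, and 0.0948, 0.102, 0.252 and 0.708 in marker-negative cells. *Ald* averaged 1.07, 2.11, 5.39 and 7.78 in pouch-like cells and 1.96, 2.47, 3.62 and 6.03 in marker-negative cells. The pouch-like level of both was below the marker-negative level on day 4 and above it on days 8 and 14. No oxidative phosphorylation gene of 46 differed by 1 or more in pouch-like cells, against 23.2% of all genes higher and 1.31% lower. Their median was -0.01 in pouch-like cells, below the 0.45 of all genes, and -0.52 in marker-negative cells.

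Of 11 heat shock genes 10 were higher by at least 1 on day 14 than on day 4, against 23.2% of all genes. Their median was 1.78 in pouch-like cells and 1.23 in marker-negative cells. On day 14 relative to day 8, 7 of 11 were so, against 3.05% of all genes. Of 13 other pouch genes 9 were higher by at least 1 and none lower, against 23.2% and 1.31% of all genes. Their median was 1.97 in pouch-like cells and 0.42 in marker-negative cells. With *kni*, which was at 0 on day 4, placed at the limit of 3 UMIs, the median in pouch-like cells was 1.52. All 5 notum genes that reached the minimum were higher by at least 1, against 23.2% of all genes, but 4 of them were at 0 on day 4. The median was 2.0 with these at the limit, against 3.02 in marker-negative cells. Of 11 EGFR and ERK genes 7 were higher by at least 1, with a median of 1.33 in pouch-like cells and 0.94 in marker-negative cells. Of 19 JNK genes 10 were so, with medians of 1.02 and 0.16, and the share over all genes was 23.2%. The day 4 values of *vn*, *aos* and *Ets21C* in pouch-like cells rest on 1, 3 and 1 UMIs. Of 15 Hedgehog and Dpp genes 8 were higher by at least 1, against 23.2% of all genes. Of these 8, *dpp*, *ptc*, *en* and *hh* had only 2 to 5 UMIs each on day 4. Cell cycle lists stood near the all-gene median or below it, with medians of 0.22 for S phase and 0.07 for G2/M.

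The gap between the classes closed with age for some genes and opened for others. The 5 genes whose ratio was most raised on day 14 relative to day 4 were *CG17278*, *CG9628*, *Ilp8*, *ImpL2* and *Gasp*. The log2 ratios of *ImpL2* were -3.68, -1.67, -0.48 and 0.23 on days 4, 5, 8 and 14 and those of *Ilp8* were -2.56, -2.65, 0.25 and 1.54. *Gasp*, which encodes a chitin-binding protein, averaged 0.314, 1.36, 4.37 and 2.82 in pouch-like cells and 8.31, 9.24, 8.33 and 5.29 in marker-negative cells. *CG9628* had no UMI in pouch-like cells of day 4, at least 16.4-fold lower than in marker-negative cells, and averaged 1.31 on day 14 against 2.49. The 5 genes whose ratio was most reduced were *magu*, *Tsp*, *wg*, *Wnt6* and *Notum*. For the last 3 and for *magu* the marker-negative level was higher on day 14 than on day 4, by 4.46 for *magu*, 2.44 for *wg*, 1.52 for *Wnt6* and 2.57 for *Notum* on the log2 scale. *Tsp*, which encodes thrombospondin, averaged 0.606, 0.352, 0.423 and 0.662 in pouch-like cells and 0.148, 0.170, 0.710 and 1.87 in marker-negative cells.

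Among members the levels of the 3 genes were only loosely related. Pearson's r over cells between *nub* and *Dll* was 0.48, 0.50, 0.22 and 0.43 on days 4, 5, 8 and 14, that between *vg* and *Dll* was 0.15, 0.29, 0.25 and 0.48, and that between *nub* and *vg* was 0.08, 0.03, 0.16 and 0.16, over 17, 63, 153 and 90 cells that share a library, its depth and the rule itself. Of 5102 genes found in at least 10% of members in every library, those with the highest mean r with the summed level of the 3 genes were *dpn* (0.39), *Syp* (0.38), *E(spl)mbeta-HLH* (0.36), *E(spl)m7-HLH* (0.34) and *Diap1* (0.33). *dpn* and the *E(spl)* genes encode repressors of the Hes family known to respond to Notch, *Syp* an RNA-binding protein and *Diap1* an inhibitor of apoptosis. The lowest were *sta* (-0.32), *CCT7* (-0.31), *CCT5* (-0.30), *CG6769* (-0.29) and *Act5C* (-0.29), which include a ribosomal protein gene, a pair of chaperonin genes and an actin gene. These values are weak, are a description over cells of 1 library each and carry no test. The mean gives the 17 cells of day 4 the same weight as each larger library. For all of these genes but *E(spl)m7-HLH*, r was strongest on day 4. On days 4, 5, 8 and 14 it was 0.67, 0.18, 0.16 and 0.32 for *Diap1* and -0.69, -0.18, -0.21 and -0.09 for *CG6769*. For *E(spl)m7-HLH* it was 0.39, 0.22, 0.44 and 0.31.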

How the data were processed

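Cells of trypsin-dissociated *scrib* mutant wing discs were profiled with the 10x method, in 1 library for each of 4 ages. Per the submitters' processing notes, Cell Ranger and Seurat were used, while the genome build, annotation and strand use were not given in the sources used here. Natural log values per gene and cell, of 1 plus UMIs per 10000, were deposited by the authors. The values gave whole UMIs in every cell within a tolerance of 0.001, and they were returned to UMIs per 10000. Of 9074 genes listed in any file, 7845 were in all 4 and were used. Depth was 7747 to 14609 UMIs in the shallowest cell of a library.

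Pouch-like cells were those with *nub*, *vg* and *Dll* above 0. Means per class and library were taken as log2(mean + 0.05), and genes with a mean of at least 0.1 over libraries in either class were tested with limma 3.58.1 in R 4.3.3 (library block, moderated variances with a trend, two-sided, Benjamini-Hochberg over all genes tested, threshold 0.05). The script was tested on simulated data. The libraries are of different ages and nothing says how many animals each holds, so p-values measure only the spread of the ratio between these 4 libraries. No doublet caller was run. Myoblast-like cells held at least 3 of 7 markers. The epithelial comparison left out marker-negative cells with at least 2 myoblast or 2 tracheal markers, and members were not filtered in this way. Tables and figures were made with python 3.11.15, numpy 2.4.6, scipy 1.17.1, pandas 2.3.3 and matplotlib 3.10.9. Gene overlaps are from the Ensembl annotation of assembly BDGP6.54, and other gene names from RefSeq.

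Named genes were the 15 highest and 15 lowest log2 ratios among called genes with 1 sign in all 4 libraries and a mean of at least 0.5 in either class, the 8 largest rises and falls between days 4 and 14 in pouch-like cells, the 5 genes each way whose ratio changed most between these days, the 5 each way with the highest and lowest correlation with the 3 genes, genes the study follows, and members of 22 lists. The same rule for day 14 over day 8 was added after seeing the data. The members and lists were chosen with earlier results of these data known. Alternatives were another pseudocount (0.5), other minimum means, other comparison cells, stricter members, the mean of log values, sums of UMIs, no library block, no trend and each age left out.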

Additional observations from a re-analysis of the deposited data

Results flagged for a closer look

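For 7 named genes the ratio of pouch-like over marker-negative cells lay on one side of 0 on day 5 and on the other side on day 14, each time beyond its counting error and with a log2 size over 0.5. With 1 library per age the difference between the ages was not tested. *Ilp8*, the relaxin-like hormone gene, had log2 ratios of -2.65 on day 5 and 1.54 on day 14. *kek1*, the feedback inhibitor of the EGF receptor, had -1.04 on day 5 and 0.63 on day 14. The Hedgehog receptor gene *ptc* had -0.92 and 0.93, the ligand gene *dpp* had -0.66 and 0.57, and *Doc1*, a T-box gene, had -1.39 and 0.69 on the same days. *mamo* and *Tsp* turned the other way, with 0.50 and -0.58 for *mamo* and 0.87 and -1.43 for *Tsp*.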

How the results depend on the processing

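With 4 libraries as replicates, the counts of called genes moved with the settings while directions mostly held. Of 118 called genes named or listed here, at most 1 turned its sign under any of the 18 alternatives. It was *SPARC*, whose log2 ratio was 0.73 (limma adjusted p = 0.215) without marker-negative cells that held at least 2 myoblast markers. The fits without the library block or the trend cannot change a sign, since they leave the ratio as it is. The named genes with the highest and lowest ratios were chosen for 1 sign in all 4 libraries. For them, leaving out 1 age, using days 8 and 14 alone or weighting libraries by members cannot change the sign either. Their kept signs under those fits follow from the choice and are no test of it. Of all called genes with a value, 758 of 775 kept the sign under the epithelial comparison. With at least 2 UMIs of each gene 802 of 806 did. The main counts, 331 higher and 477 lower, became 117 and 185 with members of at least 2 UMIs of each gene, 56 and 135 without the library block, and lay between 60 and 399 and between 111 and 548 when 1 age was left out, with 60 and 111 without day 5 and 109 and 205 without day 8. Of the 118 genes 78 lost the call without the library block, 62 with at least 2 UMIs of each gene, 80 without day 5 and 57 without day 8, fits that have fewer libraries or members or a wider spread. Alternatives chosen after seeing the data gave 572 higher genes on days 8 and 14 alone and 687 with libraries weighted by members. Scaling to UMIs outside the ribosomal protein genes, also chosen after seeing the data, gave 431 and 457.

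The shares of pouch-like cells on days 4, 5, 8 and 14 were 0.233%, 0.527%, 3.70% and 5.68% after thinning to 12000 UMIs and 0.0793%, 0.279%, 2.74% and 4.14% with at least 2 UMIs of each gene. Genes higher by at least 1 on the log2 scale on day 14 than on day 4 numbered 2045 with at least 2 UMIs of each gene, and 172 when day 14 was set against day 8. Genes lower by at least 1 numbered 358 when levels were scaled without ribosomal protein genes, 347 with at least 2 UMIs of each gene, and 14 when day 14 was set against day 8. The day 14 median of the pouch list was 0.82 with the epithelial comparison, against 1.28 otherwise. No paired analysis was possible because every library is replicate 1 of its age, so no replicate numbers pair libraries, while the pouch-like and marker-negative cells of a library were paired in the fit through the library block. Day 4 has 17 members, in which a count of 0 allows a level of up to 0.0945 UMIs per 10000.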

Other observations

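The groups of genes in this part were chosen after the calls had been seen, so their counts are descriptions and no list was tested. Genes of the actin cytoskeleton were lower in pouch-like cells. All 7 tested genes of the Arp2/3 complex, which nucleates branched actin, were called lower by limma, with log2 ratios between -1.12 and -0.56, against 8.79% of all genes tested. *Arpc5* averaged 0.855, 1.21, 1.24 and 1.10 UMIs per 10000 in pouch-like cells on days 4, 5, 8 and 14, against 2.69, 2.89, 2.26 and 2.0 in marker-negative cells (log2 ratio -1.12, SE 0.15, limma adjusted p = 0.00367). Of 20 actins and actin regulators 16 were lower and none higher. *Act5C*, the main cytoplasmic actin gene, averaged 29.1, 44.9, 40.0 and 42.9 in pouch-like cells and 82.0, 89.8, 69.3 and 69.0 in marker-negative cells (log2 ratio -0.99, SE 0.13, limma adjusted p = 0.00359). *cib*, which encodes a protein that binds monomeric actin, averaged 6.83, 6.31, 8.18 and 10.8 in pouch-like cells and 20.9, 23.2, 21.7 and 23.4 in marker-negative cells (log2 ratio -1.50, SE 0.12, limma adjusted p = 0.000656). The nonmuscle myosin genes *zip* and *sqh* had log2 ratios of -1.09 and -0.96. *flr*, *ena*, *Cdc42* and *Rac1* did not pass the test. With the epithelial comparison, 6 of the 7 Arp2/3 genes and 11 of the 20 others were called lower, and with levels scaled to UMIs outside the ribosomal protein genes the counts were 7 and 16.

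All 7 tested ESCRT-III genes, whose products act in the sorting and scission of membranes, were called lower, with log2 ratios between -1.21 and -0.46, and 2 of them were called with the epithelial comparison. Of the 8 CCT chaperonin genes 3 were lower, against 8.79% of all genes tested, and 5 were lower with the epithelial comparison. Genes of the *E(spl)* complex, known to respond to Notch, were higher in 4 of 8 tested and lower in none, against 6.1% and 8.79% of all genes tested. *E(spl)m7-HLH* averaged 0.356, 0.174, 0.701 and 1.30 in pouch-like cells and 0.0229, 0.0469, 0.214 and 0.849 in marker-negative cells (log2 ratio 1.45, SE 0.27, limma adjusted p = 0.0148). *E(spl)m8-HLH*, *E(spl)m2-BFM* and *E(spl)m3-HLH* had log2 ratios of 1.32, 1.29 and 0.75, and 3 genes of the complex were called higher with the epithelial comparison.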
